A study of Mus musculus with 5 samples.

Results

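Loss of Eed was examined by setting the Eed -/- library of mouse embryonic stem (ES) cells against the WT library, across consecutive windows of 1 kb in which both libraries had enough reads. CpGs outside the MspI recognition site CCGG were used, and a window entered the comparison with at least 5 such CpGs and at least 30 reads in each library. Of 115091 windows with such a CpG in any of the 5 libraries of the series, 9146 met this minimum. The Eed -/- library listed such a CpG in 51584 windows and the WT library in 100842. The method was reduced representation bisulfite sequencing (RRBS), in which MspI cuts the genome at CCGG, short CpG-rich fragments are kept, and bisulfite turns unmethylated cytosines into bases read as T, so that the share of reads still showing C is the methylation level. Eed -/- cells are labelled by genotype and as grown in serum with LIF (leukemia inhibitory factor), with no strain or passage given. Ezh2 -/- and Ring1B -/- cells carry the same labels apart from the genotype. Fbxl10 T/T and WT cells are labelled C57BL/6J, were grown on mouse embryonic fibroblast feeders in serum with LIF, were taken off the feeders before use, and were harvested at passage 17. Levels in the 3 other mutants are quoted beside single results. There was 1 library per genotype, so genotype, cell line, culture and library cannot be told apart, and no difference below has a replicate check.

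Eed is the subunit of Polycomb repressive complex 2 (PRC2) that binds trimethylated lysine 27 of histone H3 and stimulates the catalytic subunit Ezh2, which places that mark. In ES cells PRC2 occupies CpG islands, which are CpG-rich stretches mostly free of DNA methylation, at the promoters of silent developmental regulators such as homeobox genes. The series title concerns the protection of Polycomb-bound genes from DNA hypermethylation by FBXL10, a CpG island-binding protein, and the Eed -/- library lets the same islands be read in cells labelled as lacking a PRC2 core subunit. RRBS does not show whether Eed was deleted, and the Eed promoter was not among the promoters measured.

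The Eed -/- library held 1106253 reads at CpGs outside CCGG, with a median of 3 per CpG, against 25424859 reads and a median of 37 in WT. A read was counted at each CpG it covers, so these are not independent molecules. In the 9146 windows the median was 64 reads over 15 CpGs in Eed -/- and 1414 reads over 27 CpGs in WT. Cytosines outside CpG, which are mostly unmethylated and measure incomplete conversion together with any true non-CpG methylation, still read C in 2.83% of Eed -/- reads and in 1.02% of WT reads. In mitochondrial DNA the share was 2.01% in Eed -/- and 0.227% in WT. Levels were therefore corrected for each library's non-CpG share. A window with no C read then stands at -2.91% in Eed -/- and at -1.03% in WT. It stands at -2.15% in Ezh2 -/-, -2.69% in Ring1B -/- and -0.692% in Fbxl10 T/T. Ezh2 -/- and Ring1B -/- were also shallow, with medians of 3 and 2 reads per CpG, against 25 in Fbxl10 T/T. Levels of the other mutants are quoted only in windows with at least 5 CpGs and 30 reads there, and are imprecise at such counts. Intervals are 95% Wilson intervals on uncorrected shares and cover counting error only. Both these and the upper limits given where 0 reads showed C take each count as a separate molecule. Where 1 molecule covers several CpGs they are too narrow.

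The sequences shown are the starts of 5 genes, 300 bases each (250 before and 50 after the start), as given in RefSeq for GRCm38.p6. A sequence can hold only a part of the reads of its window. They were placed on mm9, the build of the deposited tables, by matching them to the bases spelled out there, and 10029 of 32619 promoter sequences were placed. Each placed promoter contains CCGG, searched on both strands at once since it reads the same on each, against 52.8% of all promoters in the RefSeq table. Capitals mark the CpGs outside CCGG with a read in Eed -/-. Clcn4 is shown as the largest gain, Tmem267 and Scnn1b as losses at gene starts, and Hoxd11 and Nkx6-2 as Polycomb targets that were low in both libraries.
Clcn4 (chr7:7252219-7252518, minus strand): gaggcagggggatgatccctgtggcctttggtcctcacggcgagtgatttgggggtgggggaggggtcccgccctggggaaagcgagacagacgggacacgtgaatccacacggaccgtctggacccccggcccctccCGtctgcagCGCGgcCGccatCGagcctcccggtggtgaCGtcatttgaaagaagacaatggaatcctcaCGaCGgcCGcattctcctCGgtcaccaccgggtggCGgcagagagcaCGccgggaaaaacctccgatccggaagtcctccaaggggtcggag
Tmem267 (chr13:120277030-120277329, plus strand): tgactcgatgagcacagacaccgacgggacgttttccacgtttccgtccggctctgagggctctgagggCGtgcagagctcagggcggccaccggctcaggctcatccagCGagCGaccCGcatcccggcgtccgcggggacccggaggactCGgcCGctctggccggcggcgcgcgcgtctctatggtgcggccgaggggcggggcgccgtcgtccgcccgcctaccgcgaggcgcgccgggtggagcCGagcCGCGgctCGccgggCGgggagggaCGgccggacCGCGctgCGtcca
Scnn1b (chr7:129008302-129008601, plus strand): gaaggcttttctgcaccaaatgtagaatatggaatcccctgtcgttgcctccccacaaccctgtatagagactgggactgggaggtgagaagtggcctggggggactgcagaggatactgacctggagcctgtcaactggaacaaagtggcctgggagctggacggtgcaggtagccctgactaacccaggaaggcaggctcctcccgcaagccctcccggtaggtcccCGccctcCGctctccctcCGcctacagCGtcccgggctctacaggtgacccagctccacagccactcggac
Hoxd11 (chr2:74520130-74520429, plus strand): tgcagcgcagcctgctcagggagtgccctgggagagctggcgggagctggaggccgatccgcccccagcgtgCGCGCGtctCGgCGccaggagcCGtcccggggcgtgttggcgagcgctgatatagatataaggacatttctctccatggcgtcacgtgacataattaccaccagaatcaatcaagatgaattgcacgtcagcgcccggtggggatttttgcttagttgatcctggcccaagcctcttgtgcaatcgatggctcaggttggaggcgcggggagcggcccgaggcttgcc
Nkx6-2 (chr7:146768647-146768946, minus strand): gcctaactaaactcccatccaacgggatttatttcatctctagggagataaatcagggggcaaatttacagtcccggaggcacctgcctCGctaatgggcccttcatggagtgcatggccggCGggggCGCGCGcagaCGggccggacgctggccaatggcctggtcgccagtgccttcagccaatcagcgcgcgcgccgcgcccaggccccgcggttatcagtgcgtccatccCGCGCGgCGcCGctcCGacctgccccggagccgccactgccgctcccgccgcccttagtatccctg
Within the sequence shown, Clcn4 has 27 CpGs, of which 5 lie in CCGG and were left out. Of the rest 12 were read in Eed -/-, and 59.0% of 488 reads showed C, against 1.19% of 1674 reads in WT. In the Tmem267 sequence 2.90% of 69 Eed -/- reads showed C, against 54.4% of 11071 WT reads. The Scnn1b sequence has 10 CpGs, of which 2 lie in CCGG and were left out. Of the rest 4 were read in Eed -/-, with C in 23.5% of 17 reads, against 51.8% of 336 reads in WT. The whole Scnn1b window held 62 Eed -/- reads. Within the sequence, the CpG at 129008558 had C in 20% of 5 Eed -/- reads and 7.04% of 71 WT reads. Past it, the CpG at 129008707 had C in 0 of 15 Eed -/- reads and 29.6% of 115 WT reads. The WT shares are over all CpGs outside CCGG in the sequence that were read in WT. These were 13 in Clcn4, 37 in Tmem267 and 4 in Scnn1b. In Hoxd11 none of 12 reads over 6 CpGs showed C in Eed -/-, too few for a close limit, against 1.40% of 500 reads in WT. Over the whole Hoxd11 window 1 of 88 Eed -/- reads showed C. In Nkx6-2 1.79% of 56 reads did so in Eed -/-, against 4.76% of 504 reads in WT.

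Most windows were unmethylated in both libraries. Of the 9146 windows, 7539 (82.4%) differed by at most 5 percentage points and 8666 (94.7%) by at most 10. The mean level was 1.19% in Eed -/- and 2.55% in WT, with a mean difference of -1.37 points and a median of -1.84. This sign depends on the correction, since the mean of the uncorrected levels was 0.437 points higher in Eed -/-. A window was called where the corrected levels differed by at least 20 points and Fisher's exact test on the summed reads (two-sided) gave a Benjamini-Hochberg adjusted p under 0.05 over all 9146 windows. By this rule 30 windows rose in Eed -/- (0.328% of those tested) and 65 fell (0.711%). Both counts describe these 2 libraries, and the reads behind them are few: 18 of the 30 risen windows and 20 of the 65 fallen ones had under 5 Eed -/- reads per CpG on average, as did 5685 of all 9146 windows. The test uses uncorrected reads, so the higher non-CpG share of Eed -/- enters its p-values: of 1117 windows with an adjusted p under 0.05 at any size of difference, Eed -/- was higher in 981 and lower in 136.

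**Figure D1:**
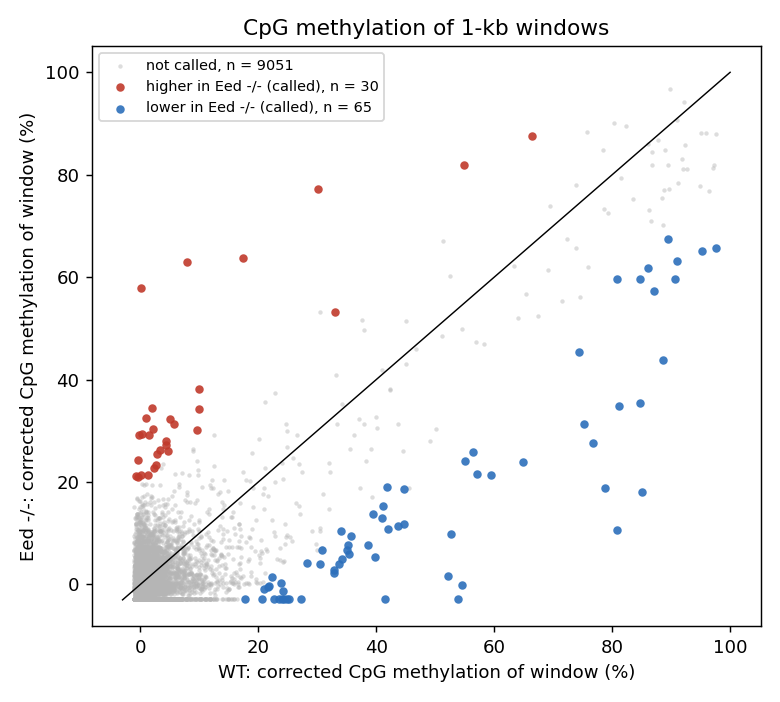
Corrected CpG methylation (percent) of each of the 9146 windows of 1 kb in Eed -/- (vertical axis) against WT (horizontal axis). Points are windows, red for the 30 called higher in Eed -/-, blue for the 65 called lower and grey for the rest. The line marks equal levels, and most windows sit near 0 in both libraries.

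The level in Eed -/- was below that of WT mainly where WT carried methylation. Among the 8683 windows under 10% in WT the mean was 0.306% in Eed -/- and 1.12% in WT, and 25 windows rose. A fall of 20 points was not possible in that class, since levels in Eed -/- cannot go below -2.91%, and there the mean difference of -0.814 points turned to 0.9995 without the correction. In the 323 windows at 10 to 30% in WT the mean was 5.53% in Eed -/- and 15.5% in WT, and 1 window rose while 16 fell. In the 81 windows at 30 to 70% the mean was 28.7% in Eed -/- and 43.8% in WT, with 4 risen and 31 fallen. In the 59 windows at 70% or more the mean was 69.3% in Eed -/- and 86.0% in WT, with 18 fallen and little room for a rise. Of these 59 windows, 52 were lower in Eed -/-, as were 67 of the 81 in the class below. Classing by WT and then subtracting WT can by itself make a high class look lower elsewhere. With the WT reads divided at random, 1 set for the classes and the other for the difference, the mean differences were -9.18, -15.7 and -16.7 points in the 3 upper classes, against -9.96, -15.1 and -16.7 points undivided. The division was drawn at each CpG separately, so a molecule read at several CpGs can count in both sets. It therefore removes only a part of the counting error, and nothing else.

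In the windows measured in all 5 libraries the same classes can be set side by side, each mutant against the 1 WT library they share. At 30 to 70% in WT (34 windows) the mean was 28.9% in Eed -/-, 25.9% in Ezh2 -/-, 46.5% in Ring1B -/-, 66.2% in Fbxl10 T/T and 44.2% in WT. At 70% or more (19 windows) it was 68.9% in Eed -/-, 57.8% in Ezh2 -/-, 68.2% in Ring1B -/-, 79.2% in Fbxl10 T/T and 85.6% in WT. At 10 to 30% (158 windows) it was 5.74% in Eed -/-, 9.98% in Ezh2 -/-, 14.1% in Ring1B -/-, 53.4% in Fbxl10 T/T and 15.0% in WT. Differences between the mutants were not tested.

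**Figure D2:**
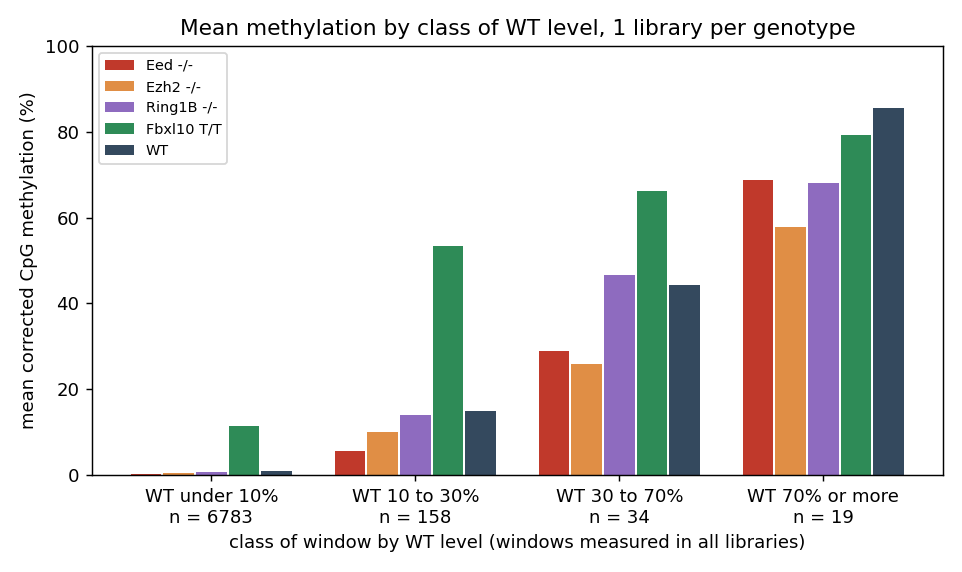
Mean corrected CpG methylation (percent) in 4 classes of windows by WT level, over windows measured in all 5 libraries (numbers under the axis). Bars are libraries, 1 per genotype and so without error bars, with Eed -/- at the left and WT at the right of each class. Eed -/- is below WT in each class, though under 10% this turns without the background correction, with 28.9% against 44.2% at 30 to 70%.

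Promoters of developmental regulators known as Polycomb targets stayed at low methylation in Eed -/-. Of 230 such genes listed, 58 had a measured promoter window (a window within 500 bases of a placed start), in 74 windows. Of these, 1 rose, or 1.35% of the list's windows beside 0.328% of all windows, and with 1 call the share says little. No window of the list was above 14.3% in WT, so none could fall by 20 points. The mean level was 1.67% in Eed -/- and 2.37% in WT, and the median difference was -2.05 points, beside -1.84 over all windows. Over the pooled reads of the list, 3.98% showed C in Eed -/- (3.50 to 4.53%) and 3.05% in WT (2.96 to 3.15%), before correction. In 21 of the 74 windows no Eed -/- read showed C, beside 2820 of all 9146 windows, so this count does not set the list apart. In Fbxl10 T/T the same 74 windows averaged 42.1%, and 42 of them stood at 50% or more. In those 42 windows, picked by their Fbxl10 T/T level, the mean was 1.72% in Eed -/- and 2.81% in WT.

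Foxd3, a forkhead factor of neural crest and pluripotent cells, had 0 of 96 reads with C in Eed -/-, over 26 CpGs. This allows a share of up to 3.12% if each count is a separate molecule, and more if not. Its corrected level was 76.2% in Fbxl10 T/T and 2.52% in WT. Gsx1, a homeobox factor of the ventral forebrain and spinal cord, had 0 of 120 reads with C in Eed -/- (a share of up to 2.50%), at 65.2% in Fbxl10 T/T and 0.253% in WT. Hoxd11, a homeobox factor of the limb and trunk axis whose start is printed above, stood at -1.74% in Eed -/- and at 2.97% in WT, with 62.8% in Fbxl10 T/T. Nkx6-2, a homeobox factor of the nervous system, stood at 2.94% in Eed -/- and at 1.94% in WT, with 76.3% in Fbxl10 T/T. Beyond single examples, the levels of the list ran from -2.91 to 30.3% in Eed -/- and from -0.940 to 14.3% in WT.

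The window that rose was that of Pou4f1, a POU-domain factor of sensory neurons. It stood at 30.3% in Eed -/- and at 2.20% in WT, a difference of 28.1 points (adjusted p = 6.79e-06, Fisher's exact test). The same window stood at -0.356% in Ezh2 -/-, 3.865% in Ring1B -/- and 43.6% in Fbxl10 T/T. In counts, 10 of 31 Eed -/- reads showed C (18.6 to 49.9%), at 7 of 11 CpGs with at most 4 reads each. Apart from a read at 104867541, those with C all lay at CpGs from 104867150 to 104867171, with 4 reads at each. These can be the same molecules counted at each CpG, which the p-value does not allow for. At non-CpG cytosines of the same window 9.52% of 21 Eed -/- reads showed C, against 0% in WT, and the part of this in the result was not tested. In 5 further windows of the list Eed -/- was higher with an adjusted p under 0.05 by Fisher's exact test. Their differences were under 20 points, so they were not called. Pou4f1 included, 6 of the 74 windows of the list were higher at this adjusted p, beside 981 of all 9146 windows. These shares were not tested against each other. Nkx2-1, a homeobox factor of lung, thyroid and forebrain, was at 15.2% in Eed -/- and 0.310% in WT. Tbx1, a T-box factor of the pharyngeal arches, was at 16.7% in Eed -/- and 3.92% in WT, with a non-CpG share of 14.9% in Eed -/- and 0% in WT. Foxc1, Hmx1 and Pax7 differed by 9.61, 9.58 and 8.81 points. The non-CpG share was 9.79% in Eed -/- and 0.385% in WT at Hmx1, and 5.085% in Eed -/- and 0.790% in WT at Pax7. At Nkx2-1 it was 3.77% in Eed -/- and 0% in WT. The call of Pou4f1 was lost when WT was thinned to the Eed -/- reads at each CpG.

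**Figure D3:**
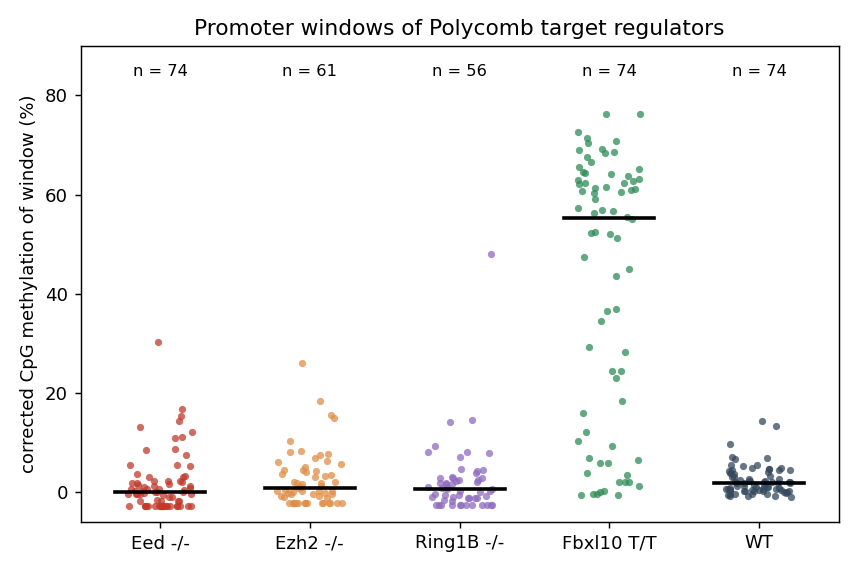
Corrected CpG methylation (percent) of the promoter windows of Polycomb target regulators in each library. Points are windows, the bar is the median, and n is the number of windows that reached the minimum. The Eed -/- windows lie at or below 16.7% apart from Pou4f1 at 30.3%, the WT windows at or below 14.3%, and the Fbxl10 T/T windows mostly above 50%.

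The largest gain lay at the start of Clcn4, which encodes an endosomal chloride-proton exchanger. Its window (chromosome 7, 7252001 to 7253000) stood at 57.8% in Eed -/- and at 0.179% in WT, a difference of 57.6 points (adjusted p = 1.61e-191, Fisher's exact test). Before correction 288 of 488 Eed -/- reads showed C, or 59.0% (54.6 to 63.3%), against 1.19% of 1674 WT reads (0.775 to 1.84%). All 12 CpGs read in Eed -/- carried methylation, from 41.7 to 71.6% with 10 to 81 reads each, while in WT the median over 13 CpGs was 1.59%, and the 1 CpG at 50% there had 2 reads. The non-CpG share of the window was 3.50% in Eed -/- and 0.577% in WT. The same window stood at 11.98% in Ezh2 -/- (94 reads), 48.3% in Ring1B -/- (441 reads) and 0.521% in Fbxl10 T/T (1079 reads). In each of the 24 alternative settings in which the window was measured, it kept its call.

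**Figure D4:**
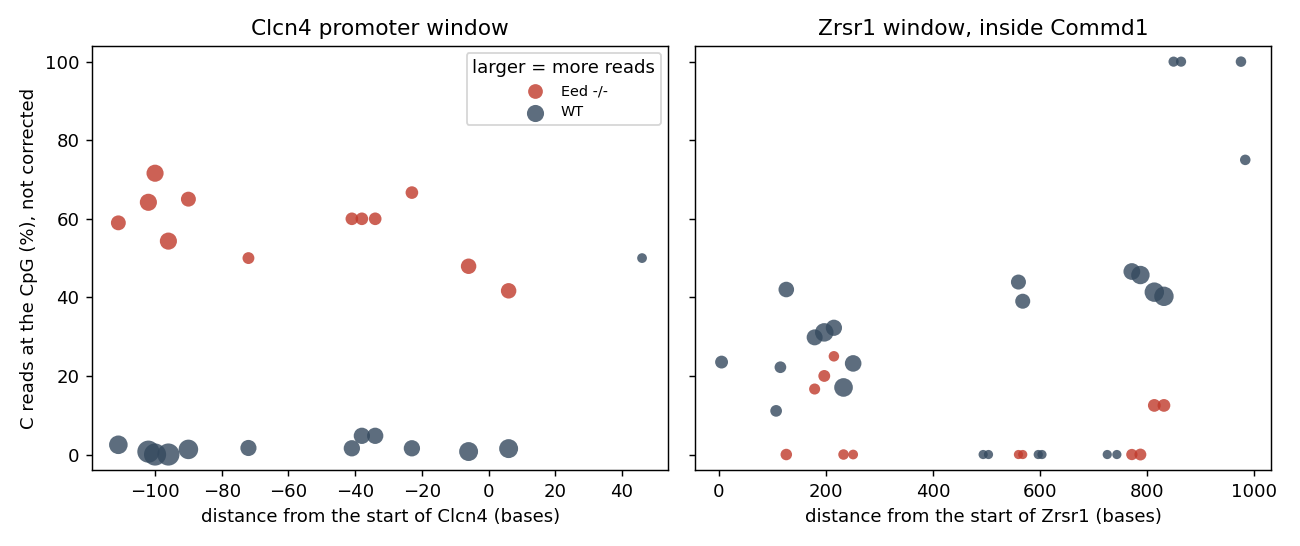
Uncorrected share of reads showing C (percent) at single CpGs in Eed -/- (red) and WT (dark) against the distance in bases from the start of Clcn4 (left) and of Zrsr1 (right), with larger points for more reads. At Clcn4 the Eed -/- CpGs lie between 41.7 and 71.6%, above every WT CpG but one of 2 reads. At Zrsr1 no Eed -/- CpG exceeds 25%.

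Of the 30 risen windows, 15 lay at a placed gene start, which is 0.288% of the 5206 windows there, beside 0.381% of the 3940 windows elsewhere and 0.328% of all. Apart from Clcn4, these gains were smaller and rested on 30 to 99 Eed -/- reads each, beside a median of 64 over all windows. Zfp629 stood at 27.2% in Eed -/- (29 of 99 reads), 66.2% in Fbxl10 T/T and 4.34% in WT. Gm2694 stood at 26.3% in Eed -/- (25 of 88 reads), 62.35% in Fbxl10 T/T and 3.35% in WT. The examples that follow were low in Fbxl10 T/T. Atf4, the transcription factor of the integrated stress response, stood at 29.4% in Eed -/- (16 of 51 reads), -2.15% in Ezh2 -/-, 2.86% in Ring1B -/-, -0.524% in Fbxl10 T/T and 0.221% in WT. Rgcc, a regulator of the cell cycle, stood at 38.2% in Eed -/- (18 of 45 reads), 55.3% in Ring1B -/-, 2.84% in Fbxl10 T/T and 9.93% in WT. No Eed -/- read showed C at non-CpG cytosines in either of these 2 windows. At Atf4 the Eed -/- reads with C all lay at CpGs from 80085654 to 80085675, with 6 to 9 reads at each. These can be the same molecules counted at each CpG. B3glct, a glucosyltransferase acting on secreted proteins, stood at 24.3% in Eed -/- (23 of 87 reads), 5.71% in Ezh2 -/-, 53.9% in Ring1B -/-, -0.206% in Fbxl10 T/T and -0.416% in WT. Timm8a1, a chaperone of mitochondrial protein import, stood at 32.5% in Eed -/- (11 of 32 reads) and at 1.04% in WT, and Pgd, an enzyme of the pentose phosphate pathway, stood at 29.2% in Eed -/- (10 of 32 reads) and at -0.274% in WT. Both were at -0.692% in Fbxl10 T/T. Pgd had a non-CpG share of 20.8% in Eed -/- and 2.37% in WT. The adjusted p was 1.39e-12 for Atf4, 4.81e-05 for Rgcc, 9.25e-22 for B3glct, 1.88e-07 for Timm8a1 and 4.16e-07 for Pgd, by Fisher's exact test. With WT thinned to the Eed -/- reads the calls of Rgcc, Timm8a1 and Pgd were lost, and with its own non-CpG share as background that of Pgd was lost. Of all risen windows measured in Fbxl10 T/T, 9 of 30 were at least 20 points above WT there. In Ring1B -/- 8 of 22 were, and in Ezh2 -/- 2 of 20. Over all windows measured these counts were 2028 of 9143, 89 of 7807 and 13 of 7593. The shares were not tested against each other.

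Gains went with reads showing C outside CpG. In 18 of the 30 risen windows (60.0%) the Eed -/- non-CpG share was 5% or more, as it was in 11 of the 65 fallen windows (16.9%) and in 14.5% of all windows. Over the pooled reads of the risen windows it was 19.7% in Eed -/- and 1.44% in WT, but 6.97% in Eed -/- and 1.27% in WT without 1 window. That one was on chromosome 16 (15085001 to 15086000), at 63.8% in Eed -/- and 17.3% in WT. Its non-CpG share was 64.3% in Eed -/- and 12.5% in WT. Its CpG level was above WT in each other mutant too, at 54.9% in Ezh2 -/-, 48.7% in Ring1B -/- and 56.3% in Fbxl10 T/T. That window was also unusual in depth, with 961 reads in Eed -/- and 693 in WT, while the median window had 20.4 times more reads in WT. Without windows at 5% or more non-CpG in Eed -/-, 12 windows rose and 51 fell. With each window's own non-CpG share taken as its background, 18 rose and 66 fell. Both settings were chosen after seeing the data, and the part of incomplete conversion in the remaining gains was not tested.

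**Figure D5:**
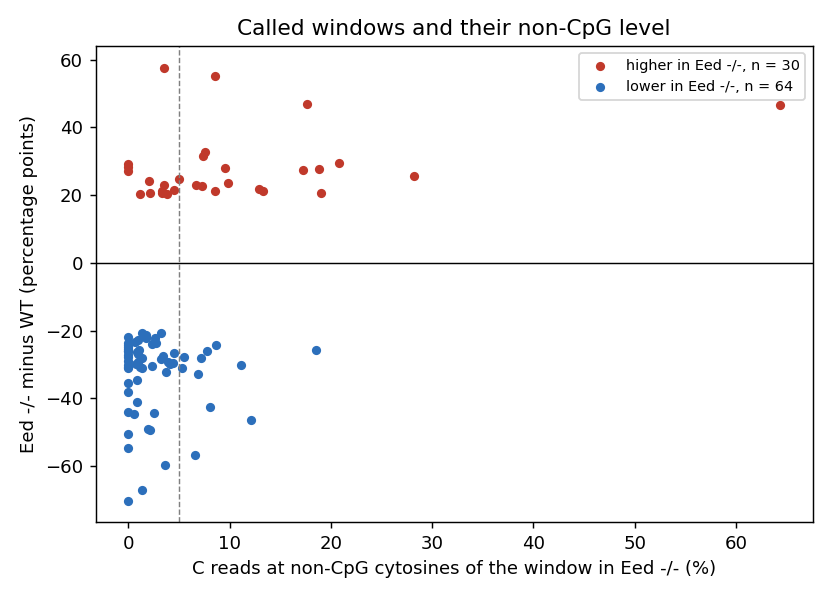
Difference in corrected CpG methylation, Eed -/- minus WT (percentage points), of called windows against the share of C reads at non-CpG cytosines of the same window in Eed -/- (percent). Red points are windows higher in Eed -/-, blue points windows lower in Eed -/-, and the dashed line marks 5%. Of the 30 red points 18 lie at or right of the line, of the blue ones 11, and 1 fallen window had no non-CpG read.

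Away from placed gene starts, the largest gains were on chromosome 10 (79198001 to 79199000), at 63.0% in Eed -/- and 7.90% in WT, and on chromosome 12 (100883001 to 100884000), at 77.1% in Eed -/- and 30.2% in WT. The first rested on 64 Eed -/- reads over 25 CpGs and stood at 67.4% in Ring1B -/-, 5.92% in Ezh2 -/- and 87.9% in Fbxl10 T/T. The second rested on 45 Eed -/- reads and turned to -4.68 points when WT was read at the same CpGs with the Eed -/- weights. It was above WT in each other mutant too, at 65.95% in Ezh2 -/- (36 reads), 71.8% in Ring1B -/- (62 reads) and 50.3% in Fbxl10 T/T. On chromosome 4 (108453001 to 108454000) the level was 34.5% in Eed -/- and 1.93% in WT, over 44 Eed -/- reads. That window was at -2.15% in Ezh2 -/- and 3.56% in Fbxl10 T/T. The 2 remaining windows among the 12 largest gains, on chromosome 2 (25402001 to 25403000) and chromosome 14 (67487001 to 67488000), were at 29.2 and 32.4% in Eed -/- and at 1.44 and 5.08% in WT, with non-CpG shares of 18.8 and 17.2% in Eed -/- and 0 and 2.77% in WT. With their own non-CpG shares as background they differed by 12.9 and 17.2 points and were not called.

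Most losses lay outside placed gene starts, as did most windows with methylation in WT, and 10029 of 32619 starts were placed. Of the 65 fallen windows 15 lay at a placed start, which is 0.288% of the 5206 windows there, and the other 50 make 1.27% of the 3940 windows elsewhere. Within classes of WT level the shares were otherwise: at 10 to 30% in WT 10 of 89 fell at starts (11.2%) and 6 of 234 elsewhere (2.56%), and at 30 to 70% 4 of 10 at starts (40%) and 27 of 71 elsewhere (38.0%). These shares were not tested against each other. Of the 65, 56 had under 20 CpGs listed in WT, beside 2716 of all 9146 windows. At 10 to 70% in WT, 38 of 281 windows with under 20 CpGs fell (13.5%), 8 of 117 with 20 to 39 (6.84%) and 1 of 6 with 40 or more (16.7%). These sets had mean WT levels of 22.6, 17.6 and 24.65%, so the room for a fall differed. The mean level of the 65 fallen windows was 17.2% in Eed -/- and 49.8% in WT. In 11 of them no Eed -/- read showed C. The deepest losses were on chromosome 4 (140425001 to 140426000), at 10.7% in Eed -/- (7 of 53 reads) and 80.9% in WT, and on chromosome 9 (119024001 to 119025000), at 18.1% in Eed -/- (9 of 44 reads) and 85.1% in WT. On chromosome 12 (92886001 to 92887000) the level was 18.9% in Eed -/-, 0.471% in Ezh2 -/-, 84.8% in Fbxl10 T/T and 78.7% in WT. On chromosome 8 the window from 3482001 held 0 of 36 reads with C in Eed -/- and stood at 53.9% in WT, and the one from 38056001 was at 1.56% in Eed -/- and 52.2% in WT. The other 6 of the 12 largest losses, all outside placed gene starts, on chromosomes 4, 10, 2, 5, 17 and 19, lay between -2.91 and 43.9% in Eed -/- and between 41.6 and 88.5% in WT. Their adjusted p ran from 2.30e-10 to 2.37e-05 (Fisher's exact test).

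At gene starts the deepest loss was in the window shared by Tmem267 and 3110070M22Rik (chromosome 13, 120277001 to 120278000), at -0.166% in Eed -/- (2 of 75 reads) and 54.6% in WT (adjusted p = 6e-20, Fisher's exact test). It stood at 41.7% in Ezh2 -/-, 12.5% in Ring1B -/- and 25.3% in Fbxl10 T/T. This window had 12009 reads in WT, and it was 1 of 3 fallen windows among the 109 windows with over 5000 WT reads. Scnn1b, a subunit of the epithelial sodium channel, was at 5.39% in Eed -/- (5 of 62 reads), 6.36% in Ezh2 -/-, 45.8% in Ring1B -/-, 75.5% in Fbxl10 T/T and 39.8% in WT (adjusted p = 4.83e-06, Fisher's exact test). With WT thinned to the Eed -/- reads its call was lost. Lonp2, a peroxisomal protease, had 0 of 82 reads with C in Eed -/- (a share of up to 3.66%) and was at -2.15% in Ezh2 -/-, -2.69% in Ring1B -/-, 20.9% in Fbxl10 T/T and 24.1% in WT. Tmc6, of the transmembrane channel-like family, had 0 of 61 reads with C in Eed -/- (up to 4.92%) and stood at 19.7% in Ezh2 -/-, -1.41% in Ring1B -/-, 1.37% in Fbxl10 T/T and 23.6% in WT. Sf3b6, a splicing factor, had 0 of 30 (up to 10%) and was at -2.15% in Ezh2 -/-, -2.69% in Ring1B -/-, 1.05% in Fbxl10 T/T and 24.4% in WT. Aen, a nuclease, had none of 44 reads with C in Eed -/- (up to 6.82%). Its window was at -2.15% in Ezh2 -/-, -2.69% in Ring1B -/-, 1.84% in Fbxl10 T/T and 20.6% in WT. In Ezh2 -/- the level of -2.15% rested on 53 reads at Lonp2, 35 at Sf3b6 and 33 at Aen, none with C. In Ring1B -/- that of -2.69% rested on 96, 35 and 61 reads, none with C. The remaining fallen windows at starts, apart from that of Zrsr1 below, were those of Rarres1, Foxn4, Lrrc10, Klf15, Fancd2os, Slc47a2, C230014O12Rik and LOC115489466, at -2.91 to 67.5% in Eed -/- and 21.0 to 89.5% in WT.

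Imprinted genes are methylated on the allele from 1 parent at their control regions, so that intermediate levels are usual there. Of 49 listed, 10 were measured, in 11 windows, of which none rose and 1 fell (9.09%, beside 0.711% of all windows). With 1 call the share says little. Only 2 of the 11 stood at 20% or more in WT, and of all windows at 30 to 70% in WT 38.3% fell. The fallen window lies at Zrsr1, a gene expressed from the paternal copy inside an intron of Commd1, and also holds a start of Commd1 (chromosome 11, 22872001 to 22873000). It stood at 6.78% in Eed -/-, -0.0634% in Ezh2 -/-, 26.5% in Ring1B -/-, 35.9% in Fbxl10 T/T and 35.1% in WT. In counts, 9.41% of 85 Eed -/- reads showed C (4.85 to 17.5%), against 35.8% of 1105 WT reads (33.0 to 38.6%), and the adjusted p was 8.34e-06 (Fisher's exact test). Of 12 CpGs read in Eed -/-, 5 had a read with C. Plagl1, an imprinted zinc finger gene, was not called, at 32.3% in Eed -/- (13 of 38 reads), -2.15% in Ezh2 -/-, 39.9% in Ring1B -/- and 37.1% in WT. The other 9 windows, among them those of Igf2, Igf2r, Grb10 and Gnas, lay between -2.91 and 4.19% in Eed -/- and between -0.541 and 4.08% in WT. Of these, Inpp5f had 0 of 156 reads with C in Eed -/- (a share of up to 1.92%) and was at 3.49% in WT. The call at Zrsr1 was lost with CpGs inside CCGG kept, at -17.8 points.

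Promoters of germline genes are silenced by DNA methylation in other cells, and 5 of 57 listed were measured, in 6 windows with no call. Sycp1, a protein of the synaptonemal complex, had windows at 29.2 and 65.7% in Eed -/- and at 36.3 and 73.9% in WT. Hormad1, a meiotic chromosome protein, was at 49.9% in Eed -/- and 54.5% in WT, and Ddx4, a germ cell RNA helicase, was at 10.8% in Eed -/- and 16.9% in WT. Each of the 6 windows was lower in Eed -/-, with differences from -8.16 to -2.83 points, as were 6368 of all 9146 windows by any amount. Depth limits this group, with a median of 46.5 Eed -/- reads per window.

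The promoters of the chromatin machinery itself showed no call, and their WT levels were too low for a fall of 20 points. For subunits of the Polycomb complexes, 16 of 36 genes were measured in 23 windows, at a mean of 0.587% in Eed -/- and 1.52% in WT, with differences from -5.10 to 5.70 points. Suz12, the PRC2 core subunit that holds the complex together, was at 3.52% in Eed -/- and 2.36% in WT, and Jarid2, an accessory subunit of PRC2, was at 2.21% in Eed -/- and 1.57% in WT. The 3 windows of Kdm2b, which encodes FBXL10, lay between -2.91 and 0.409% in Eed -/- and between 0.820 and 1.89% in WT. For enzymes that write or remove DNA methylation, 8 of 20 genes were measured in 9 windows, at a mean of 1.46% in Eed -/- and 0.143% in WT, while the median difference was -1.56 points. Dnmt3b, a de novo methyltransferase, was at -2.24% in Eed -/- and -0.578% in WT, and Dnmt1, the maintenance methyltransferase, was at 4.11% in Eed -/- and 0.0335% in WT. In 19 of 50 housekeeping genes, with 21 windows and no call, the mean was -0.489% in Eed -/- and 0.0190% in WT, and the median difference was -1.07 points.

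As a check of cell type, the measured promoters of pluripotency genes other than Tfcp2l1 stood below 3% in both libraries, as did those of fibroblast genes, so that methylation does not tell these cell types apart here. Of 32 pluripotency genes 6 were measured, in 7 windows, and 1 of them rose (14.3%, beside 0.328% of all windows). With 1 call the share says little. The mean was 3.46% in Eed -/- and 1.43% in WT, while the median difference was -0.778 points. Klf4 stood at 1.05% in Eed -/- and 1.83% in WT, and Sox2 at 0.949% in Eed -/- and 1.27% in WT, both being core pluripotency factors. Tfcp2l1, a factor of the naive state, was at 26.1% in Eed -/- (11 of 39 reads) and 4.79% in WT (adjusted p = 0.000635, Fisher's exact test), with a non-CpG share of 13.3% in Eed -/- and 1.07% in WT. With its own non-CpG share as background the Tfcp2l1 difference was 12.4 points and the call was lost. The 4 fibroblast genes measured of 25, Twist2, Vim, Fbn1 and Timp2, lay between 0.208 and 1.12% in Eed -/- and between 1.51 and 2.32% in WT.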

How the data were processed

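DNA methylation was measured by RRBS in 1 library each of Eed -/- and WT ES cells, with 3 more libraries quoted for comparison. BSMAP 2.74 and mm9 are named per the submitters' processing notes; trimming, removal of duplicates and filters are not given in the sources used here. Per the file headers, the deposited counts are whole reads per cytosine that show C, that show C or T, and that lie on the opposite strand. The deposited expected counts are C or T reads that the authors scaled for variants seen on the opposite strand. The deposited fraction is C reads over these, per the file headers. CpGs are listed on the plus strand, with both strands already summed.

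From the counts, C reads and C or T reads were summed over CpGs outside CCGG in windows of 1000 bases on the autosomes and X, with at least 5 CpGs and 30 reads in each library. With b the library's non-CpG share, the corrected level is (raw - b)/(1 - b). Windows were tested by Fisher's exact test on uncorrected reads (Python 3.11.15, scipy 1.17.1) with Benjamini-Hochberg adjustment over 9146 windows and called at an adjusted p under 0.05 and 20 points. The code was tested on simulated data. At the minimum of 30 reads, 0 reads with C allow a share of up to 10% if each count is a separate molecule. With 1 library per genotype the p-values compare these libraries and hold no spread between cultures. They also take each count as a separate molecule, so they are too small where 1 molecule covers several CpGs.

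Promoters of RefSeq (GRCm38.p6) were placed by a unique match of at least 40 known bases, and no coordinates were converted between builds. The named windows are the 12 largest called gains and losses plus called members of 8 gene lists; other members, and called windows at gene starts beyond these, were picked after their values were seen. Windows, classes and gene lists were chosen with earlier results of these data known. Alternatives changed the background, CpGs, minimums, window size, depth and thresholds. No mm9 genome or annotation was used here.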

Additional observations from a re-analysis of the deposited data

Results flagged for a closer look

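CpGs inside CCGG, which the comparison leaves out because MspI cuts there, gave a signal of their own: 50.7% of reads showed C in Eed -/- (832986 reads) and 46.3% in WT (17574928 reads). Over CpGs outside CCGG the share, also before correction, was 12.8% in Eed -/- and 13.6% in WT. The cause was not tested.

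Non-CpG cytosines showed C in 2.83% of reads in Eed -/- and in 1.02% in WT. By the next base, the share was 2.93% in Eed -/- and 1.85% in WT where A follows, and 2.79% in Eed -/- and 0.709% in WT where C or T follows.

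At the window on chromosome 16 from 15085001, 64.3% of non-CpG reads showed C in Eed -/- and 12.5% in WT, the highest Eed -/- share among the 9146 windows, beside CpG levels of 63.8% in Eed -/- and 17.3% in WT.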

How the results depend on the processing

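The counts moved with the size rule, the minimums, the depth and the CpGs used, and stayed within 1.5 times under the settings not listed. Against 30 risen and 65 fallen windows, a rule of 10 points gave 161 and 123, and one of 30 points 6 and 29. At least 20 reads gave 51 and 114, 60 reads 9 and 16, and 10 CpGs 19 and 17, while 3 CpGs gave 103 fallen. With WT thinned to the Eed -/- reads at each CpG, 8 rose and 26 fell, and over windows in all 5 libraries 17 and 29. Keeping CpGs inside CCGG gave 172 and 285. Averaging over CpGs gave 56 risen, of which 15 were among the 30. Settings chosen after seeing the data gave 18 risen with each window's own non-CpG background, 12 without windows at 5% or more non-CpG, and 5 risen and 4 fallen in the 165 windows with at least 10 Eed -/- reads per CpG.

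The mean difference of -1.37 points turned to 0.437 without correction, 0.478 with the median subtracted and 1.57 with CpGs inside CCGG. It was -1.63 with background from cytosines not followed by A, -1.21 without those followed by CG, -1.44 with each window's own background, -1.57 at 3 CpGs, -0.966 at 10 CpGs, -1.67 at 20 reads, -0.957 at 60 reads, -1.56 in windows of 2 kb, -1.30 over CpGs listed in both libraries, -1.13 in windows of all 5 libraries, -1.97 without windows at 5% or more non-CpG and -1.52 at 10 reads per CpG. The background without cytosines followed by CG and the weighting of WT named below were also chosen after seeing the data. By class, the difference under 10% in WT was -0.814 points, but 0.9995 uncorrected and -0.884 with each window's own background. At 10 to 30% it was -9.18 with WT reads divided and -8.15 uncorrected, and at 30 to 70% -13.6 uncorrected.

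Of the 12 largest gains and 12 largest losses, the one on chromosome 16 from 15085001 turned to -5.09 points with its own background, and the one on chromosome 12 from 100883001 to -3.57 when averaged over CpGs and -4.68 with WT weighted by Eed -/- reads. Over these and the 4 windows of Tfcp2l1, Zrsr1, Scnn1b and B3glct, 28 in all, 546 values kept call and direction, 29 lost the call and 3 reversed. No paired analysis was possible because each genotype has 1 library.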

Other observations

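In 1198 windows at 50% or more in Fbxl10 T/T and under 10% in WT, chosen by those 2 libraries, the mean level was 1% in Eed -/-, 2.50% in Ezh2 -/- (980 windows), 2.77% in Ring1B -/- (1002 windows), 62.9% in Fbxl10 T/T and 3.16% in WT. Of them, 10 stood at 20% or more in Eed -/-, beside 35 of all 8683 windows under 10% in WT. Called as risen were 4 of the 1198 (0.334%), beside 0.288% of those 8683 windows. These shares were not tested against each other.

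Just inside the size rule the smallest called rise was 20.2 points and the smallest called fall -20.7 points. The largest differences that were not called, for want of an adjusted p under 0.05 by Fisher's exact test, were 22.8 and -26.6 points.

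The limits are those of the depth and the design. In Eed -/-, 2820 windows held no read with C and 187 had exactly 30 reads. A base other than G opposite a CpG marks a possible sequence variant. Of 143849 Eed -/- CpGs with at least 5 opposite-strand reads, 61 showed G in under 20% of them, against 174 of 736807 in WT.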
